A study of Mus musculus with 18 samples.

Results

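Wild-type mouse embryos at embryonic day 9.5 were described here through the 6 arrays whose titles carry the wild-type label, of 18 arrays in the series. Each embryo had been divided in 3 and the RNA was taken from the central piece. Replicates 1, 5 and 7 were each measured on 2 array types with different probe sets, called type a and type b after the letter in the titles, so each type holds 3 wild-type arrays. The other 12 arrays hold embryos of the same age and body part that were heterozygous or homozygous mutant for Nkx2-5 (also written Csx), the cardiac homeobox gene. They were used only for the noise level and for the spread within each genotype, and no genotype was compared with another. The labels name no strain and no somite stage, and give no landmark at which the embryo was divided. Left unstated are the number of embryos behind each array and whether a number shared by types a and b means shared RNA. Nkx2-5 itself was not analysed here, so no array was checked against its genotype label. The spread between replicates may therefore be technical, biological or both, and these cannot be told apart.

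At this stage the heart of a mouse embryo is a looped, beating tube, primitive red cells made in the yolk sac circulate with embryonic globins, and the neural tube, somites, gut tube, liver bud and first limb buds lie close together. The middle of the body takes in several of these, so its RNA is a mixture. In such a mixture fewer cells of a type and less RNA per cell cannot be told apart.

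A probe set is a group of short oligonucleotides read as 1 intensity. Its intensity depends on how well its oligonucleotides bind as well as on the amount of RNA. Ranks within an array type are therefore ranks of intensity and not of transcript number, and no level is compared between the 2 types. A probe set was called detected when its intensity lay over a floor on all 3 wild-type arrays of its type, not detected when it lay at or under the floor on all 3, and mixed otherwise. The floor was 2 times the noise SD, 375.1 for type a and 523.1 for type b. All arrays of a type shared 1 floor, although their own noise differed. On type a the noise SD was 144.7 for wild type 1, 291.9 for wild type 5 and 144.1 for wild type 7. On type b it was 205.6, 329.0 and 266.3 in the same order. Noise alone can therefore pass the floor more easily on wild type 5, and dim values there are less certain. Values per replicate are given throughout in the order wild type 1, 5 and 7.

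Detected on type a were 3220 of 6523 probe sets (49.4%), with 880 mixed (13.5%) and 2423 not detected (37.1%). Type b had 2269 of 6534 detected (34.7%), 801 mixed (12.3%) and 3464 not detected (53.0%). Of 6137 genes named by at least 1 probe set, 3185 were detected (51.9%), 845 were mixed (13.8%) and 2107 were not detected (34.3%). That share of 51.9% is the background against which each gene list below is read. By probe sets with 1 gene symbol the detected share was 52.3% on type a, with 13.8% mixed and 33.9% not detected, and 42.2% on type b, with 13.6% mixed and 44.2% not detected. Pairs of wild-type arrays had a Spearman rho of 0.938 to 0.945 (type a) and 0.915 to 0.925 (type b) across all probe sets, which are not independent replicates. Signal ratios of the actin control from its 3′ to its 5′ end, a sign of RNA and label length, lay between 1.06 and 1.41 for type a and between 0.974 and 1.40 for type b.

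**Figure D1:**
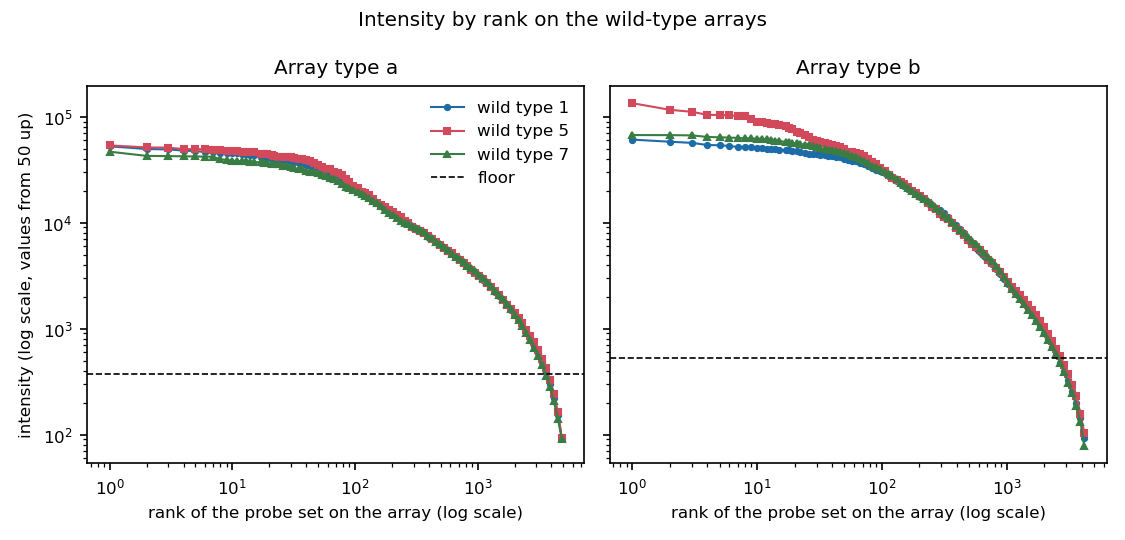
Intensity against the rank of the probe set on each wild-type array, both axes on a log scale, with array type a on the left and type b on the right; points are ranks spaced evenly on the log axis and the dashed line is the floor. The curves of the 3 replicates lie close together except at the top of type b, where wild type 5 reached 134088 against 60744 and 67049.

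The brightest end of the range held many genes of the protein-making machinery, with glycolytic, cytoskeletal and globin genes. Among the 100 brightest probe sets of type a, 60 carried 1 gene name, and 25 of these were for 23 cytosolic ribosomal protein genes. On type b 55 of the 100 were named, and 14 were for 10 ribosomal protein genes, 7 for 4 glycolytic genes, 6 for 5 cytoskeletal genes and 2 for globins. Probe sets marked by the maker as matching a sequence family made up 71 of the 100 on type a, against 6.27% of all probe sets there, and 85 of the 100 on type b, against 22.6%. A bright value may thus sum several related transcripts, and this was not tested gene by gene.

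On type a the brightest named probe set was that of Mif, a cytokine with tautomerase activity, at 45680, 53572 and 42464. Hba-x, the zeta-like alpha globin of primitive red cells, came next among named probe sets at 52485, 49358 and 37151, and it was the brightest probe set of all on wild type 1. Hbb-y, the embryonic epsilon-like beta globin, stood at rank 30 with 39213, 40120 and 31758. Igf2, the imprinted growth factor of the embryo, stood at rank 46 with 34540, 39361 and 29274. Rpl23, Rps28, Eef1a1, Rps18, Rpl19, Rpsa, Rpl12 and Rplp2 filled the named places between Hba-x and rank 20. Also among the 25 brightest named probe sets were Atp5b of the mitochondrial ATP synthase, Set, which binds histones, Kpna2, a nuclear import receptor, and Actg1, cytoplasmic gamma actin.

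On type b the glycolytic enzyme Gapdh was the brightest named probe set, at 51534, 103662 and 62477. Rps12, Eef1a1, Ppia, Rpl37a, Rps3 and Rpl3 followed. Actc1, the cardiac alpha actin, was at rank 13 with 51001, 81914 and 64376, and Hba-a1, an adult alpha globin, at rank 16 with 44685, 86139 and 57389. Both were read on probe sets of a sequence family. H19, the imprinted non-coding RNA next to Igf2, was at rank 24 with 47447, 65845 and 52492. Pkm, Aldoa and Ldha, which with Gapdh make 4 glycolytic enzymes among the 25 brightest named probe sets, lay between 39817 and 60144 on every array. Across these genes wild type 5 was the highest array of type b in 22 of 25 cases. Its excess was largest at the top of the range and did not hold throughout. At rank 294 of each array the values were 13052, 12080 and 12774, with wild type 5 the lowest. At rank 2005 they were 909, 1035 and 905, with wild type 5 the highest. The median log2 difference of wild type 5 over wild type 1 was 0.33 for the 100 brightest probe sets and 0.08 for all detected ones.

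An unnamed probe set whose identifier refers to the mouse B2 repeat, a short interspersed element present in very many copies, was at rank 6 on type a with 49080, 46947 and 41883. On type b the same identifier was the brightest of all by its mean, with 45810, 134088 and 66940. It had rank 24 on wild type 1 and rank 1 on wild type 5, so its place rests on wild type 5.

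The sequences upstream of 5 genes are shown as examples of promoters with many and with few CG pairs. They were picked for that contrast and are no sample of bright genes. RefSeq promoters of GRCm38.p6 were used, and each line gives the 150 bases before the annotated start, 5′ to 3′ on the gene's strand, with every CG pair in capitals. Rps12 encodes a ribosomal protein, Actc1 the cardiac actin, Hba-x and Hbb-y the embryonic globins, and Afp the alpha-fetoprotein of liver bud and yolk sac, which varied widely among the replicates.
Rps12 (chr10:23787210-23787359, minus strand): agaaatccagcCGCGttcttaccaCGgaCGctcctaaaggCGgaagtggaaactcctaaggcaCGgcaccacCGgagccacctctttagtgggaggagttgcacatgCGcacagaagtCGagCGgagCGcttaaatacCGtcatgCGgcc
Actc1 (chr2:114052876-114053025, minus strand): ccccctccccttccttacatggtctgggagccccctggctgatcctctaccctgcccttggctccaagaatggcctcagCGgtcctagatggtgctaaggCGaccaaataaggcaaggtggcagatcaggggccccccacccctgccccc
Hba-x (chr11:32276450-32276599, plus strand): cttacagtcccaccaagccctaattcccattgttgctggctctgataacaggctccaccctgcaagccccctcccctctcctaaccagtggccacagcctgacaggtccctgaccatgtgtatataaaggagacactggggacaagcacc
Hbb-y (chr7:103853208-103853357, minus strand): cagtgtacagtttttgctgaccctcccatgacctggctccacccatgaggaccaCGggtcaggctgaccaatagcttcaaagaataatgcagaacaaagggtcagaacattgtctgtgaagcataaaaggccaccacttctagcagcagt
Afp (chr5:90490564-90490713, plus strand): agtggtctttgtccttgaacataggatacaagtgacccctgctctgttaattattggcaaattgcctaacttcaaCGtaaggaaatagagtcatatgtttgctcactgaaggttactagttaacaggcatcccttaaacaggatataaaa

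Over the 250 bases before the start, Rps12 had 21 CG pairs, Actc1 had 4, and Hba-x, Hbb-y and Afp had 1 each. The letters TATAAA on the gene's strand, searched in the last 50 bases, were present for Hba-x from base 28 before the start and for Afp from base 7 before it. They were present in 3.15% of all 27025 promoters of the table, and the reverse letters TTTATA in 1.29%. A CArG box, the motif bound by serum response factor in muscle genes, was searched over the 250 bases, where its pattern reads alike on both strands. Actc1 had it from base 47 before the start, and Myl3 and Myom1 also had it, so 3 of the 11 cardiac sarcomere genes held it (27.3%) against 1.62% of all promoters. The letters TATAAA can lie inside a CArG box, and none of the 11 sarcomere genes held TATAAA. A match is a run of letters and no evidence of binding.

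The cardiac sarcomere genes, all 11 with a promoter entry, had a median of 3.0 CG pairs, and 72.7% of them had fewer than 5. The list was not uniform: Myl4 had 23, Tpm1 had 19 and Des had 10. Genes of heat shock proteins and chaperonins had a median of 23.5, those of cell cycle and DNA replication 18.5, and those of glycolysis 14.0. The median was 6.0 over all promoters, which reach beyond the genes of the arrays, and 17.0 over the 2581 of 3185 detected genes with an entry (81.0%). Over the 4891 of 6137 named genes with an entry (79.7%) it was 14.0, the same as for glycolysis. The lists are thus nearer to the genes of the arrays than the value over all promoters shows. Among mature-tissue lists, the liver genes and the pancreas genes each had a median of 3.0. A comparison of detected with not detected genes is void, since only 77.8% of the latter had an entry.

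Detection followed the kind of gene list. Of 336 genes in 13 housekeeping and metabolic lists, 294 were detected (87.5%). Of 373 genes in 26 lists for tissues of the embryo, axial pattern, signalling and growth, 190 were detected (50.9%), close to the 51.9% of all named genes. Of 225 genes in 12 lists for mature or other tissues, 39 were detected (17.3%) and 157 were not (69.8%). None of 12 pluripotency and primitive streak genes was detected, and 10 lay at or under the floor on all 3 arrays. These shares moved with the floor: with a floor 2 times higher they were 84.5%, 35.9%, 7.56% and 0.0%, and with a floor 2 times lower 90.8%, 63.0%, 28.0% and 16.7%. The order of the 4 kinds was the same each time. The lists were chosen with earlier results of these data known, so this order describes the lists and is no test.

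**Figure D2:**
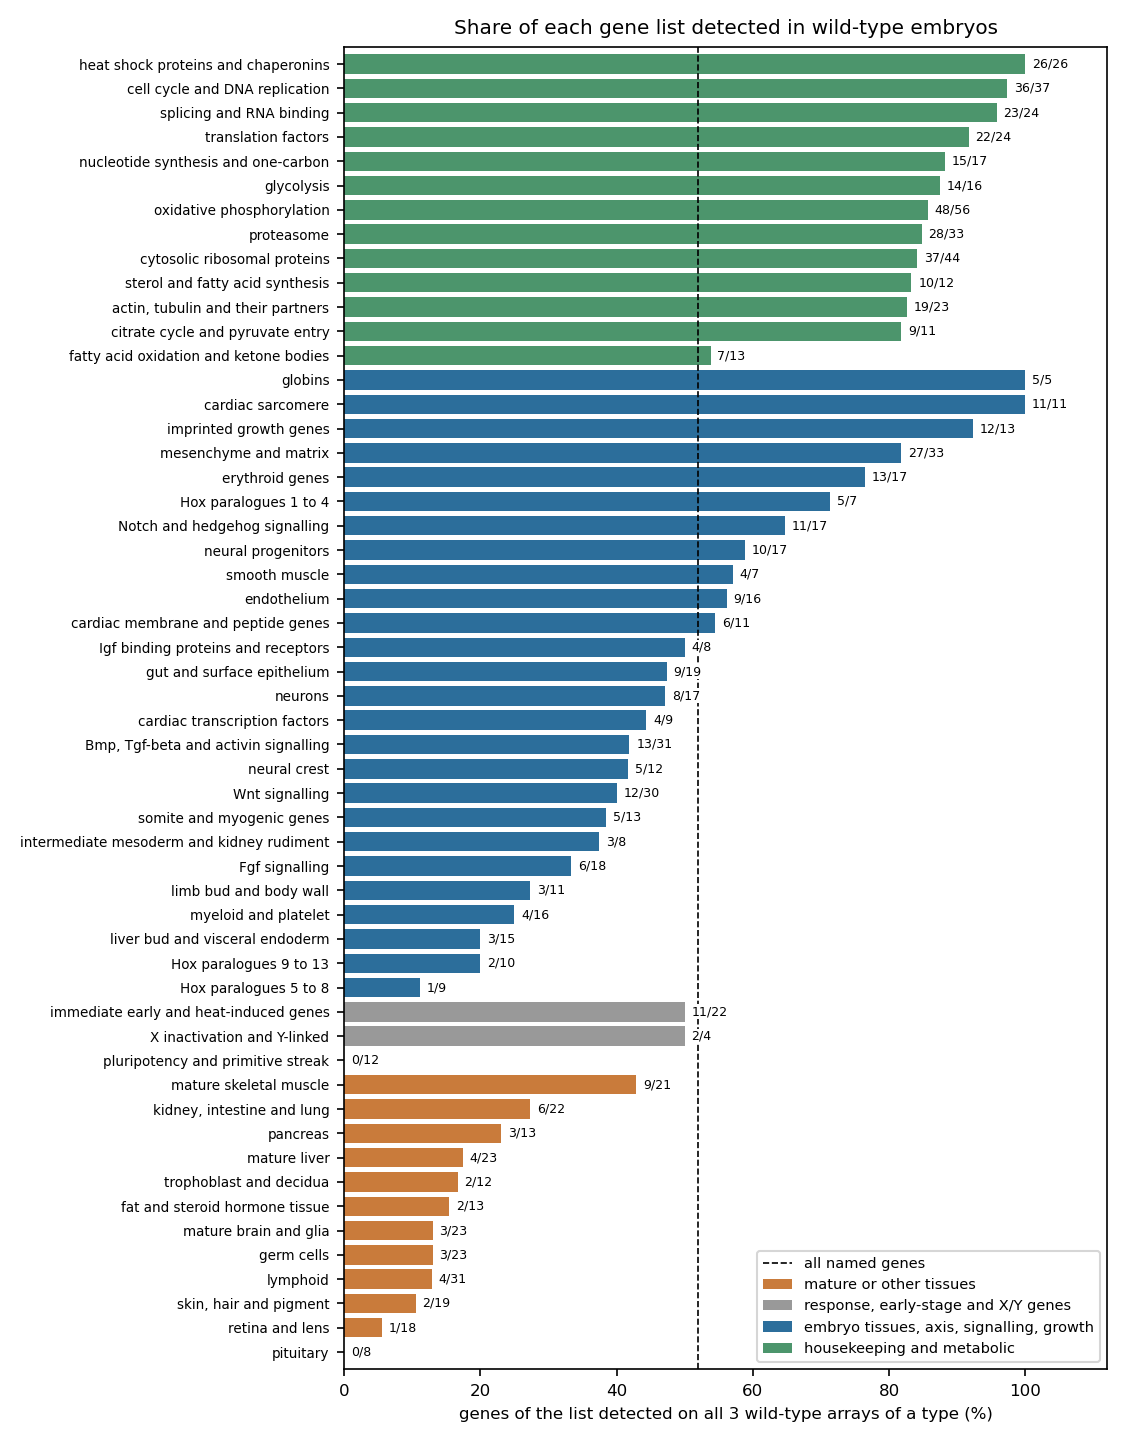
Share of the measured genes of each of 54 lists that were detected in wild-type embryos, in percent, with the number detected and the number measured beside each bar; colours mark the kind of list and the dashed line is the 51.9% of all named genes. Of the housekeeping and metabolic lists fatty acid oxidation, with 7 of 13, lies nearest to the line, cardiac sarcomere and globins have every member detected, and lists for mature tissues lie under the line.

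The contractile apparatus of the heart was represented by every gene measured. All 11 measured cardiac sarcomere genes were detected, and their median probe set was brighter than 93.3% of its array type. Behind Actc1 came Myl4, the atrial essential light chain, at 15837, 19494 and 23326. Tnnc1, the cardiac troponin C, had 12675, 12618 and 17018. Myh6, the alpha heavy chain, read 9832, 11668 and 17748, and Myl2, the ventricular regulatory light chain, 10592, 13088 and 15308. Myl3, Tnnt2, Tnni3, Tpm1, Des and Myom1 were dimmer, down to 1392, 1236 and 2118 for Myom1 of the M-band.

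Wild type 7 was the highest array for 9 of these 11 genes, and wild type 1 for none. The median deviation from a gene's own mean was -0.29 on the log2 scale for wild type 1, 0.01 for wild type 5 and 0.29 for wild type 7. The 2 array types gave alike values, with -0.29, 0.01 and 0.29 over 7 genes of type a and -0.30, 0.01 and 0.29 over 6 genes on type b. Over all 4024 named genes with a value over the floor, the medians were -0.03, 0.02 and -0.02, and wild type 7 was the highest for 32.0%. Quantile normalization gave -0.29, -0.04 and 0.30. The actin 3′ to 5′ ratio was highest in wild type 7 as well, at 1.18, 1.06 and 1.41 on type a and 0.974, 1.24 and 1.40 on type b, and its part in this order was not tested. Tnnt2, cardiac troponin T, had the widest range of the list, with 3399, 7152 and 9253, a mean of 6602 ± 2970 (SD, n = 3).

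Other cardiac genes were detected at about the share of all named genes, 51.9%. Of 9 cardiac transcription factors 4 were detected: Gata6 with 2980, 1603 and 1763, Hand2 with 1138, 1691 and 1101, Tbx2 with 587, 1376 and 915, and Hand1 with 643, 529 and 995. Gata4 passed the floor only on wild type 5, the wild-type array with the highest noise SD on both types, with 353, 737 and 282. Gata5, Mef2a, Mef2c and Tbx3 were not detected, and of these Mef2c was nearest to the floor with 169, 343 and 353. Of 11 cardiac membrane and peptide genes 6 were detected, led by Atp2a2, the calcium pump of the sarcoplasmic reticulum, with 4832, 6656 and 7510. Gja1 and Gjc1, connexins of cell-to-cell channels, followed with 4903, 6019 and 5071 and with 3064, 3073 and 3688. Nppb, the B-type natriuretic peptide, had 1262, 1622 and 1548.

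Red cell genes were bright as well. All 5 globin genes were detected, with a median brighter than 99.5% of the array type. Hba-x, Hbb-y and Hba-a1 stood as given above. Hbb-bh1, the embryonic beta-h1 globin, had 20096, 14065 and 9595 on type b and 2212, 1815 and 662 on type a, so wild type 7 was the lowest on both. Hbb-b2, an adult beta globin, went the other way with 4121, 3347 and 6952, on a probe set of a sequence family. Of 17 other erythroid genes 13 were detected. They included Alad, Alas2, Urod, Cpox, Uros, Ppox and Fech, 7 enzymes of haem synthesis, with Alad at 5302, 4176 and 4907 and Alas2 at 4615, 2775 and 3392. Slc4a1, the band 3 anion exchanger, had 2759, 3100 and 2191, and Klf1, the erythroid transcription factor, 1577, 1528 and 1050. Gata1 was over the floor on wild type 1 alone, and Epor and Epb42 were not detected.

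**Figure D3:**
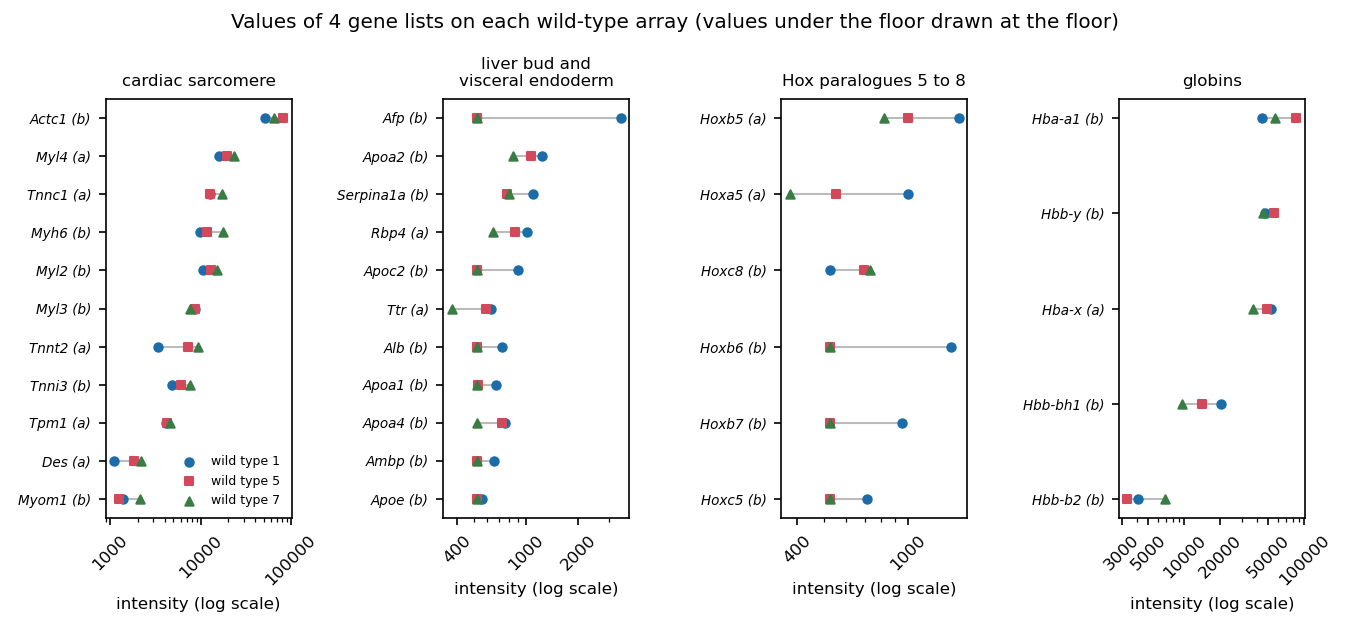
Intensity on each wild-type array, on a log axis with its own range in each panel, for the members of 4 lists over the floor on at least 1 array; the letter after a gene is its array type and values under the floor are drawn at it. Wild type 7 is the rightmost symbol for 9 of 11 cardiac sarcomere genes and the liver bud, visceral endoderm and Hox genes lie near the floor, where a member could be drawn because a single array passed it.

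Genes of the liver bud and visceral endoderm lay near the floor. Of 15 measured, 3 were detected, 8 were mixed and 4 were not detected. Without wild type 7 the number detected was 6, and with a floor 2 times higher it was 0. Afp had 3515, 337 and 396 on type b and 1406, 159 and 107 on type a, over the floor on wild type 1 only on both types. Apoa2 had 1235, 1074 and 845, Rbp4, the retinol carrier, 1008, 862 and 650, and Ttr, the thyroxine carrier, 628, 588 and 220. Alb, albumin, read 729, 381 and 280. Serpina1a, an antitrypsin, had 1100.0, 778 and 799.8. Wild type 1 had the highest value of each of the 3 detected genes, Apoa2, Rbp4 and Serpina1a. The mixed genes passed the floor through their highest array, so no count over them is given. Hhex, a homeobox gene of the liver bud, was not detected.

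Endothelial genes were detected for 9 of 16. Eng, a co-receptor of TGF-beta ligands, had 6535, 3817 and 4380. Efnb2, the arterial ephrin, was even, with 3228, 3086 and 3126. Kdr, the main VEGF receptor, had 1604, 2398 and 2691, and Cdh5, the endothelial cadherin, 1690, 1353 and 2077. Tek was mixed, and Pecam1, Flt1, Flt4, Fli1, Sox17 and Sox18 were not detected. Smooth muscle genes included a very bright Acta2 with 38161, 49265 and 41235, and Tagln with 3972, 6799 and 6912, while Myh11 and Mylk were not detected.

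Mesenchyme and matrix genes were detected for 27 of 33, and only Col2a1 was not detected on any array. Serpinh1, the collagen chaperone, had 16690, 13527 and 14309, Col3a1 15715, 13365 and 10200, and Fn1, fibronectin, 9211, 6716 and 8066. Wild type 1 was the highest for 17 of the 32 members with a value over the floor, against 31.0% of all named genes with a value over the floor. Its median deviation was 0.14 on the log2 scale. The 32 include 5 mixed genes, which entered through their highest arrays. With a floor 2 times higher the count was 15 and the median deviation 0.09. The fibrillar collagens showed the lead of wild type 1 most. Col1a1 had 4379, 1716 and 2423 on type b and 2667, 1152 and 803 on type a. Col1a2 had 3 probe sets on type b, reading 2888, 931 and 888, then 2242, 262 and 1015, then 1660, 726 and 651, each with wild type 1 the highest.

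Neural genes were detected in part. Of 17 neural progenitor genes 10 were detected, among them Sox2 with 3792, 4682 and 2918, Zic1 with 3095, 2543 and 2632, Hes5, a Notch target, with 3179, 2513 and 2180, and Fabp7 with 2087, 2177 and 1569. Nes, an intermediate filament of progenitors, had 3999, 1130 and 3583, lowest in wild type 5. Pax6, a defining member, was mixed with 428, 314 and 562, and Sox1, Sox3 and Neurog1 were not detected. Of 17 neuronal genes 8 were detected, including Tubb3 with 4522, 2228 and 1503, Dpysl3 with 3962, 3411 and 4894 and Gap43 with 2074, 2408 and 1773. Snap25, Syp and Map2, genes of synapses and mature neurites, were not detected.

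Neural crest, somite and limb genes were detected for a minority of members. The shares were 5 of 12 crest genes (41.7%), 38.5% of somite and 27.3% of limb genes, against 51.9% of all named genes. Without wild type 7 the crest count was 6, and with a floor 2 times higher each of these lists had 2 detected. Crabp1, which binds retinoic acid and marks crest and hindbrain, was the exception among crest genes at rank 56 of type b, with 37217, 49513 and 45062. Twist1 had 2991, 2946 and 3256. Erbb3 was detected, Sox10 was over the floor on wild type 7 only, with 357, -352 and 1121, and Ednrb, Ret, Mitf and Tfap2a were not detected. Foxd3, an early crest factor, ranged from 113 on wild type 7 to 2314 on wild type 5. Of 13 somite and myogenic genes 5 were detected: Foxc2, Meox1, Tcf15, Pax1 and Myog. Myog, which drives muscle differentiation, had 2812, 1345 and 683, a range of 2.04 on the log2 scale. Myf5 and Tbx6 were not detected. Limb bud and body wall genes were detected for 3 of 11, Prrx2 with 4037, 4601 and 3984, Msx1 with 4519, 2625 and 1975, and Pitx1, while Fgf8 and Fgf10 were not detected.

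Epithelial genes were led by the simple keratins. Krt8 had 3976, 4118 and 4716 and Krt18 1314, 1600 and 2254. Cdh1, the epithelial cadherin, had 1153, 1165 and 1061. Foxa2 of foregut and floor plate had 456, 1230 and 653, and Cdx2 of the hindgut 579, 1584 and 1328. Epcam, Nkx2-1 and Pdx1 were not detected. Of 8 genes of intermediate mesoderm and kidney rudiment 3 were detected, with Wt1 at 1747, 1237 and 1178. Of 16 myeloid and platelet genes 4 were detected, Lyz2 with 2931, 3530 and 1091, Cd14, Fcer1g and S100a8. Spi1, Mpo, Csf1r and Adgre1 were not detected.

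Hox genes, which give the body axis its regional identity in the order of their paralogue numbers, were detected mainly at the low-numbered end. Of paralogues 1 to 4, 5 of 7 were detected, with Hoxb1 at 1351, 2230 and 2449 and Hoxb4 at 1237, 858 and 543. Of paralogues 5 to 8, Hoxb5 was detected, with 1519, 998.7 and 819, 5 of 9 were mixed and 3 were not detected. The mixed ones were Hoxa5 with 1000.1, 552 and 259, Hoxb6 with 1426, 307 and -180, Hoxb7 with 947, 350 and 232, Hoxc5 with 710.4, 399.8 and 279.8, and Hoxc8 with 368, 696 and 729. The mixed genes again entered through their highest array, which for Hoxb6 and Hoxb7 was wild type 1 alone. Without wild type 1, or without wild type 7, the number detected was 2. Of paralogues 9 to 13, Hoxd12 and Hoxa13 were detected, both under 2 times the floor, and 5 of 10 were not detected. With a floor 2 times higher the numbers detected in the 3 groups were 2, 1 and 0. Their median probe sets were brighter than 60.8%, 57.4% and 44.5% of the array type, against 56.5% for all named genes. Paralogues 1 to 4 and 5 to 8 thus differed more in calls than in brightness.

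Signalling pathways were partly detected. In the Bmp, Tgf-beta and activin list 13 of 31 genes were detected, led by the Bmp targets Id1, with 10552, 10002 and 10969, Id2, with 11572, 8773 and 10035, and Id3, with 9379, 8802 and 7812. Bmp4 was detected with 1090, 1321 and 1313 and Bmp7 with 590, 1574 and 786, whereas Bmp2, Bmp5 and Tgfb3 were not. In the Wnt list 12 of 30 were detected. The transducer Ctnnb1 had 4004, 6815 and 4560 and the secreted antagonist Sfrp2 2880, 3622 and 2673. Of the ligands Wnt1 and Wnt10a were detected, and Wnt3a, Wnt4, Wnt5a, Wnt5b, Wnt6, Wnt7a, Wnt8a, Wnt10b and Wnt11 were not.

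In the Fgf list the receptors Fgfr1, Fgfr2 and Fgfr3, the target Dusp6 and the adaptor Grb2 were detected, and of the Fgf genes Fgf15 was detected, with 778, 1472 and 1209. The 12 genes of the list that were not detected were Fgfr4 and 11 other Fgf genes. Outside the list Fgf12 and Fgf14 were not detected and Fgf11 was mixed. Notch and hedgehog signalling was uneven, with 11 of 17 detected. Notch2, Notch3, Notch1, Notch4, the nuclear mediator Rbpj, the targets Hes1 and Hes5 and the ligand Dll1 were detected, with Notch3 at 5375, 5233 and 4848. Shh, Ihh, Dhh and their receptor and target Ptch1 were not, and Gli2 and Gli3 were mixed.

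Imprinted growth genes were among the brightest lists. Of 13, 12 were detected, with a median brighter than 93.9% of the array type. Besides H19 and Igf2 there were Gnas with 41548, 46181 and 43329, Mest with 25200.4, 27790 and 17102, Cdkn1c, a growth-restraining inhibitor of cyclin-dependent kinases, with 11486, 7784 and 8280, and Nnat. Peg3 had 10544, 13671 and 12754 on type a but 11550.4, 9935 and 5142 on type b, so its probe sets did not order the replicates alike. Peg10 was not detected.

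Energy and growth genes were detected broadly. Oxidative phosphorylation had 48 of 56 genes detected, glycolysis 14 of 16, the citrate cycle 9 of 11, nucleotide synthesis 15 of 17, and sterol and fatty acid synthesis 10 of 12. Fatty acid oxidation was lower at 7 of 13, with Cpt1a, Cpt2, Acadvl and Fabp3 mixed and Cd36 and Ppara not detected. Wild type 1 was the highest for 1 of 14 glycolysis genes, against that 31.0% of all named genes, with a median deviation of -0.28 on the log2 scale. After quantile normalization it was the highest for 3 of 14, with a median deviation of -0.13. Cell cycle genes were detected for 36 of 37, with Cdk4 at 16994, 21969 and 21880, Cdk1 at 15269, 16561 and 13691, Pcna at 10781, 13480 and 13890 and Mki67 at 7693, 11503 and 13047. Only Rb1 of that list was not detected, with 215, 216 and 287. All 26 heat shock and chaperonin genes were detected. Of 33 proteasome genes 28 were, and the immune subunits Psmb8 and Psmb9 were not.

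Some genes that every cell uses were nonetheless not detected. Their single or few probe sets stayed at or under the floor on all 3 arrays. Pgk1, the glycolytic kinase, had 11, -113 and -42, Rps7 had -32, -33 and -20, Rpl4 226, 355 and 369, and Tmsb4x, thymosin beta 4, 278, 138 and -11. In the ribosomal list 37 of 44 genes were detected and 6 were not. A probe set under the floor was therefore not read as a silent gene.

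The lists for mature tissues held few detected genes. In the lymphoid list 4 of 31 were detected, and Rag1, Rag2, Cd4, Cd8a, Cd79a and Pax5 were not. Ptprc, the pan-leukocyte phosphatase, was detected with 2473, 3342 and 2024. In the liver list 4 of 23 were detected, and Cyp2e1, Otc, Cyp7a1 and Fah were not. The pituitary list had 0 of 8 detected, with Gh, Prl and Tshb not detected, and at least 2 of 3 arrays were over the floor only for Lhx3. The retina and lens list had 1 of 18, Cryab, a small heat shock protein also made in heart, with 2737, 3531 and 3712. The skeletal muscle list was the fullest with 9 of 21, led by Acta1, skeletal alpha actin, with 10826, 11574 and 8604, and by Ckm with 3737, 4456 and 4066. Of 12 trophoblast and decidua genes 2 were detected, Plat and Hand1, and the defining members Tpbpa, Prl2c2 and the pregnancy-specific glycoproteins were not. In the kidney, intestine and lung list 6 of 22 were detected. Umod, made in kidney tubules of later stages, read 3254, 4736 and 1447, Tff3 1948, 2860 and 2592, and Scgb1a1, the club cell secretoglobin, 595, 1864 and 3108 on type b but 357, 327 and 267 on type a, under the floor there.

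Xist, the RNA of the inactive X chromosome, was detected with 738, 998 and 815. The Y-linked Sry was over the floor with 712, 831 and 851, whereas the Y-linked Kdm5d and Zfy1 were not detected. All 3 arrays of a type lay on the same side of the floor for each of these 4 genes. With a floor 2 times higher the number detected went from 2 to 0, so the calls of Xist and Sry rest on the floor. Immediate early genes, which rise within minutes of handling or stress, were detected for 11 of 22. Jund had 12057, 11504 and 11269, Jun 1426, 782 and 1086 and Egr1 was detected, while Fos, Junb, Atf3 and the inducible Hspa1a were not.

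Among replicates most genes were close together. Over 4024 named genes with a value over the floor the median range from lowest to highest array was 0.50 on the log2 scale. A range of at least 2-fold was seen for 584 of 4100 probe sets of type a (14.2%) and 403 of 3070 of type b (13.1%), and of at least 4-fold for 29 (0.707%) and 21 (0.684%). Between 2 and 5 times the floor 242 of 1211 probe sets of type a and 18.3% of those of type b had such a range. Above 10 times the floor it was 4.94% and 6.44%. Any value below the floor was raised to it, which narrows the ranges of dim probe sets.

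**Figure D4:**
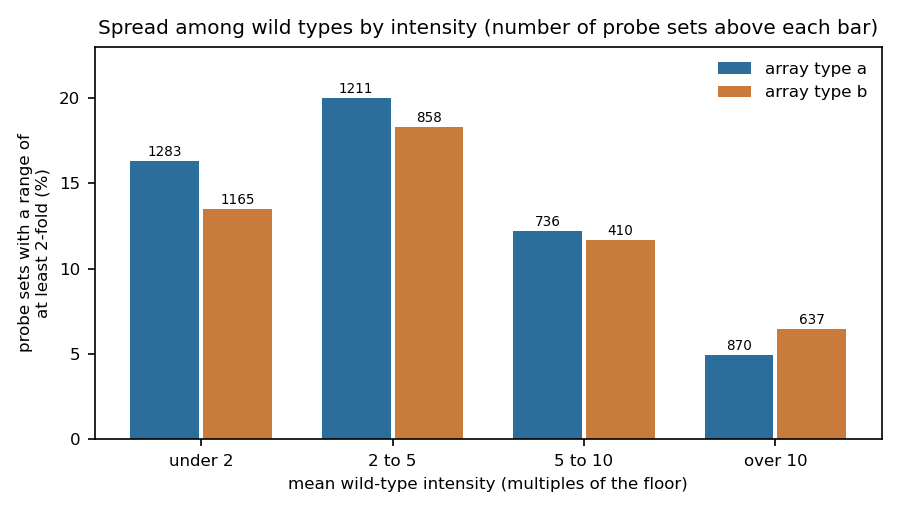
Percent of probe sets whose highest and lowest wild-type array differed by at least 2-fold, by mean intensity in multiples of the floor, for both array types; numbers above the bars are the probe sets in each class. Bright probe sets varied less often, 4.94% (type a) and 6.44% (type b).

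The steadiest bright genes had several kinds of function. Eif4b, a translation initiation factor, had 12815, 12940 and 13077, a range of 0.03 on the log2 scale. Nsa2 had 14892, 15278 and 14896 and Rps19 31469, 31010 and 30506 on type a. On type b Cox7a2, of the respiratory chain, had 15341, 15282 and 15129, Fkbp4, a co-chaperone of steroid receptors, 25060.3, 24424 and 24652, and Fbl, fibrillarin of the nucleolus, 20243, 20149 and 19386.

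The widest ranges lay mostly at a few times the floor. Type a was led by Ago2, the slicer of RNA interference, with 6619, 5624 and 992, a range of 2.74. That order depends on the floor: with a floor 2 times lower Prpsap1 ranged by 3.64, Foxd3 by 3.63 and Samd10 by 3.57, all above Ago2. Fhl3 had 4007, 1375 and 684, Eif6 3465, 1636 and 687, and Ccr2, a chemokine receptor, 712, 2644 and 565. Prpsap1, Samd10, Hspbp1, Gm1673 and 2510002D24Rik each had at least 1 array under the floor. Type b was led by Mt1, metallothionein, with 3646, 220.1 and 62, and by Afp. With a floor 2 times higher Tle5, at 1.86, ranged more than Mt1, at 1.80, and Afp, at 1.75. Lgals3 had 698, 3052 and 1467 on a probe set of a sequence family, while its 2 probe sets on type a were under the floor on every array. Cbx3, a heterochromatin protein, had 3291, 2791 and 706, and Pdgfrb, a receptor of mural cells, 310.2, 2211 and 1479.

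**Figure D5:**
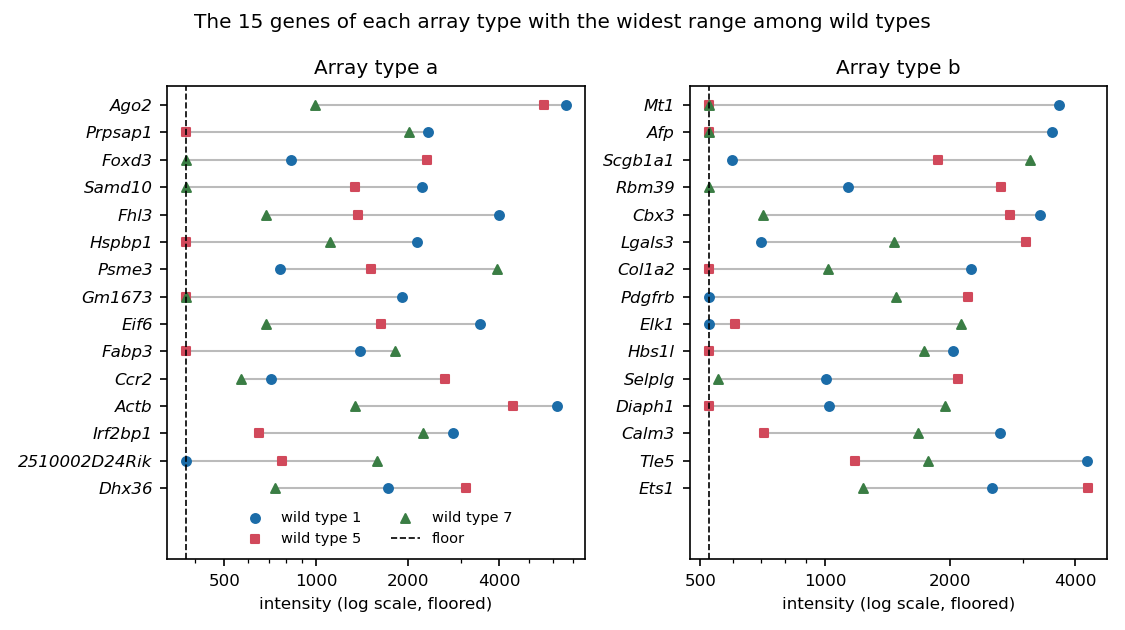
Intensity on each wild-type array, on a log axis and with values under the floor drawn at it, for the 15 genes of each array type with the widest range; the dashed line is the floor. No single replicate is the extreme one throughout: wild type 1 is rightmost for Afp and Col1a2, wild type 5 for Foxd3 and Ccr2, and wild type 7 for Psme3 and Scgb1a1.

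For some of these genes several probe sets ordered the replicates alike. The 3 probe sets of Actb, beta actin, all had wild type 7 lowest, with 8323, 6713 and 2317, then 6192, 4435 and 1339, then 5419, 3477 and 1862. All 3 are probe sets of a sequence family, so they may share targets and are not independent readings. The actin control ratio of 3′ to 5′ end on type a was also highest on wild type 7, at 1.18, 1.06 and 1.41. Its part in the Actb values was not tested. The other cytoplasmic actin, Actg1, was among the 25 brightest on both types and ranged by 0.54 and 0.20. Notch2 had 10404, 7253 and 3847 and 6495, 3084 and 2056 on a pair of probe sets for the same clone. Grn, progranulin, was highest in wild type 1 on a probe set of each type, with 2825, 822 and 1119 on type b and 2396, 582 and 989.6 on type a. In the comparison across types given below, only 2 genes, Col1a1 and Hbb-bh1, ranged at least 2-fold on both. These Grn probe sets were therefore not the pair compared there. Other wide ranges were not repeated by a second probe set. Psme3, a proteasome activator, had 761, 1518 and 3921 on type a and 1125, 1187 and 1267 on type b. Rbm39, a splicing factor, was lowest in wild type 7 on type b and highest there on 2 probe sets of type a. A second probe set of Mt1 read under the floor on every array.

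Among bright genes, Ube2s, an enzyme of mitotic ubiquitination, had 5186, 9511 and 14911, and Psma4, a proteasome subunit, 8223, 21763 and 19298. H1f10, a linker histone, had 6979, 8171 and 16722 and Hsd17b10 6269, 7616 and 14303, both highest in wild type 7. Brd2 had 6191, 3507 and 2221 and Grb10 5789, 7592 and 2882, both lowest there.

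Replicate numbers were set side by side across the array types for 157 genes detected on both. The deviations of the same number correlated across genes with r = 0.304 for wild type 1, 0.196 for wild type 5 and 0.329 for wild type 7. Different numbers gave -0.0455 to -0.269. These are descriptions over genes of 6 arrays, and the 3 deviations of a gene sum to 0, which pulls the values for different numbers below 0. The highest array carried the same number for 72 of 157 genes (45.9%), and for 14 of the 20 genes that ranged at least 2-fold on type a (70.0%). The lowest array carried the same number for fewer genes, 62 of 157 (39.5%) and 10 of those 20.

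Most probe sets with a 2-fold range among wild types did not have one within either other genotype, but the share that did was higher than among probe sets with a smaller wild-type range. Of the 584 on type a, 36.1% had a 2-fold range among the 3 heterozygous arrays and 31.8% among the 3 homozygous mutant arrays, against 6.37% and 9.56% of the others. In both genotypes it was 13.9%, against 1.34%. On type b the shares were 28.3% and 39.0%, against 5.70% and 20.4%, and in both genotypes 11.7%, against 1.91%. The homozygous ranges include an array of type a with an actin 3′ to 5′ ratio of 2.5 and another of type b with 2.28. Wild-type arrays reached 1.41 at most, and the part of this in the homozygous shares was not tested. The probe sets compared were not matched for intensity, with which the range also changed. Afp had a range of 2.66 among heterozygous and 2.45 among homozygous mutant arrays of type b, and Ago2 2.44 and 3.33 on type a. Tnnt2 had 1.17 and 2.04. By contrast Notch2 had 0.77 and 0.43, and Pdgfrb 0.27 and 0.64.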

How the data were processed

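Total RNA of the central piece of day 9.5 embryos was hybridised to 2 Affymetrix array types. The deposited values are the authors' linear intensity per probe set, with negative values that show background subtraction, with software, scaling and background method not given in the sources used here. The authors' scaling was kept. Control probe sets were left out, which left 6523 on type a and 6534 on type b, of which 7542 had 1 gene symbol, 224 several and 5291 none. Only probe sets with 1 symbol name a gene, and symbols were updated through RefSeq.

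The noise SD was the median size of the negative values divided by a constant, over the 9 arrays of a type, 187.5 on type a and 261.5 on type b. Deviations and ranges used log2 of the intensity after values below the floor had been raised to it. A gene was detected when any of its probe sets was. No test was run, since 1 genotype with 3 arrays a type has no contrast, and the number of arrays limits the precision. The members and gene lists were chosen with earlier results of these data known.

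Named genes were the 25 brightest named probe sets of each type, up to 4 brightest detected and 4 dimmest undetected members of each list with its defining members and those ranging at least 2-fold, the 15 genes of each type with the widest range, and the steadiest and most variable bright genes. Other list members with values are given as further examples and were chosen after their values were seen. Promoters came from RefSeq, GRCm38.p6, for 4891 of 6137 named genes (79.7%). Python 3.11.15, pandas 2.3.3, numpy 2.4.6, scipy 1.17.1 and matplotlib 3.10.9 were used, and the calls and ranges were tested on simulated data. The simulated arrays had equal noise, unlike the wild-type arrays, so the simulation cannot show how unequal noise affects calls and ranges. Alternatives were other floors, filters, scalings and leaving out each replicate.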

Additional observations from a re-analysis of the deposited data

How the results depend on the processing

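Detected counts and the brightest genes moved by under 1.5 times under every alternative tried, while the counts of variable probe sets followed the floor. With a floor 2 times lower, 1073 probe sets of type a and 840 of type b ranged at least 2-fold, and 102 and 66 at least 4-fold. With a floor 2 times higher the counts were 263 and 181, and 10 and 3. Requiring all 3 arrays over the floor left 17 on type a and 7 on type b at 4-fold. Leaving out 1 replicate at a time gave 270 to 279 and 186 to 197 at 2-fold, and 8 to 15 and 9 to 11 at 4-fold, since a range over fewer arrays is narrower. The number detected in a list moved by over 1.5 times in 47 of 432 cases, 22 of them with the higher floor and 12 with the lower. Leaving out wild type 7 moved liver bud genes from 3 to 6, pancreas from 3 to 5, Hox paralogues 5 to 8 from 1 to 2, and pituitary and pluripotency genes from 0 to 1, and leaving out wild type 1 moved those Hox genes from 1 to 2. Of 72 median deviations of a replicate in a list, recomputed under settings chosen after seeing the data, 68 moved by no more than the median SD of the list's genes among the 3 arrays. The single sign change was that of wild type 5 in the cardiac sarcomere list, from 0.01 to -0.04 after quantile normalization. No paired analysis was possible because the results come from no test. Signal over background limits the dim genes: the choice of floor decides their calls.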
